A study of Mus musculus with 24 samples.

Results

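The members described here are the genes of mouse chromosome 10 taken in the order of their start along the chromosome. A gene was a member when its first chromosome entry in the deposited table was 10 and its mean over the 24 samples was at least 10 normalized counts, and 635 of the 52636 genes of the table met this rule after 15 genes had been left out by symbol. The chromosome was chosen on measured values, because its genes lay above the wild type in MC38-COSMC KO, so all values of that line are given as a description without a test. The members just inside the limit were Gm10827 and Gm8899, both at 10.0, and Gm9049 at 10.04 normalized counts, and the genes just outside were Gm10145 at 9.83, Gm18904 at 9.79 and Gm48385 at 9.67. Of the members, 537 are protein-coding, 70 are pseudogenes and 26 belong to long non-coding RNA classes. They start between positions 3973118 and 130592157 of GRCm38, with 311 on the plus strand and 324 on the minus strand.

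RNA was sequenced from MC38 cells, a colorectal cancer cell line of C57BL/6 mice, in 8 lines with 3 samples each. MC38-WT is the unmodified line. MC38-COSMC KO, MC38-CMAS KO and MC38-DKO are labelled as CRISPR-Cas9 knockouts of C1galt1c1, of Cmas and of both genes. C1galt1c1 encodes COSMC, the chaperone of the enzyme that extends the Tn antigen, and Cmas encodes the enzyme that activates sialic acid. The lines labelled FUT4 and FUT9 were made with CRISPR-dCas-VPR, an activator of transcription, and are named for fucosyltransferases. MC38-MOCK#1 and MC38-MOCK#2 are the references for the knockout lines and for the activated lines. Every line except MC38-WT was grown with puromycin. MC38-COSMC KO was selected in bulk for its Tn antigen after transfection, so it is a population of cells and not a single clone. Samples of MC38-WT were of passages 7 to 9, those of the Cas9 lines and MC38-MOCK#1 of passages 4 to 6, those of MC38-FUT9 and MC38-MOCK#2 of passages 6 to 8, and those of the line labelled FUT4 of passages 7, 8 and 7. Whether samples 1 and 3 of the line labelled FUT4 are separate harvests is not stated, and its p-values treat them as separate. Handling, passage and the change made in a line cannot be told apart against MC38-WT. DNA was not sequenced here, so the number of copies of chromosome 10 in each line is not known from these data.

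Chromosome 10 of the mouse carries genes of many unrelated functions. Among them are the cyclin-dependent kinases Cdk1, Cdk2 and Cdk4, which drive the cell cycle, Foxo3, Plagl1 and Stk11, which restrain growth, the matrix proteins Dcn and Timp3, and the translation factor Eef2. Genes that are neighbours on a chromosome need share no function, so a ratio that holds over a stretch of members describes a position and not a pathway.

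The samples summed to between 10911849 and 12263307 normalized counts. The targeted genes are not on chromosome 10 and were checked against the labels. C1galt1c1 averaged 144 normalized counts in MC38-COSMC KO and 218 in MC38-WT, but 182 in MC38-DKO, close to 181 in MC38-MOCK#2. An RNA count does not show whether a gene was knocked out, so these values do not decide the knockout labels. For its C1galt1c1 knockout the paper reported mutations of the gene and lost activity of the enzyme that extends the Tn antigen. Cmas averaged 112 in MC38-CMAS KO and 133 in MC38-DKO, below the averages of 290 to 395 in the other lines. Fut4 was at 0 or 1 in every sample, and the line labelled FUT4 instead had Fut9 at a mean of 189, against 757 in MC38-FUT9, so its label goes against its RNA. Of the epithelial markers Epcam, Cdh1, Krt8, Krt18, Krt19, Vil1 and Cdx2 the sum lay between 0 and 19 in each sample, whereas the mesenchymal marker Vim lay between 19787 and 33315, so epithelial identity was not borne out by these markers. The sums of 6 blood and immune markers were between 0 and 6 and those of 2 endothelial markers between 0 and 19.

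The promoters of 3 members are shown as examples, chosen by hand and not by a ranking of members. Plagl1 was near 0 in MC38-FUT9 and above the wild type elsewhere, and Timp3 was near 0 in 3 lines. Btbd11 stood highest in MC38-COSMC KO, the line that chose the chromosome. The promoters come from RefSeq on GRCm38.p6 and hold 300 bases around a gene start on the plus strand. They lie at chr10:13090582-13090881 for Plagl1, chr10:86300162-86300461 for Timp3 and chr10:85386564-85386863 for Btbd11. The Plagl1 window lies 30328 bases inside the annotated gene, at another start. Capitals mark GGGCGG, the core of a GC box, or its reverse complement CCGCCC. Each window holds 2 such matches and none of TATAAA on either strand.
Plagl1: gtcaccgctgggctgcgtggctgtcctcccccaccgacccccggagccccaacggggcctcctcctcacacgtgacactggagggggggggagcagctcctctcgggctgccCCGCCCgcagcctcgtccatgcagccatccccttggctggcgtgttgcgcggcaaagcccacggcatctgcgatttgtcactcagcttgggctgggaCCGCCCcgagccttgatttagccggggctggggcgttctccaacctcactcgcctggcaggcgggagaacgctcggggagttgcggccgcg
Timp3: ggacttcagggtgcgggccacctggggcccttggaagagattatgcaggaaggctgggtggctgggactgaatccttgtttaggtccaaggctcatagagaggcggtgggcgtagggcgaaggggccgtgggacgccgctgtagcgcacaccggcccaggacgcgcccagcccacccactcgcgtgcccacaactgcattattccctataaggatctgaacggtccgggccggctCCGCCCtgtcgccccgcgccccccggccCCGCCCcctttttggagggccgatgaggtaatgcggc
Btbd11: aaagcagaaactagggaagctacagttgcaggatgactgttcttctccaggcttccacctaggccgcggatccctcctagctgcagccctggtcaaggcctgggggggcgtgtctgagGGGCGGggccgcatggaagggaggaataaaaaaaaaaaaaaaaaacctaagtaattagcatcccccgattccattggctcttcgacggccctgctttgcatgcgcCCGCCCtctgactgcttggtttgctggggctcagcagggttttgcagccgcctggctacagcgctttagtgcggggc
A GC box core on either strand is found in 35.6% of the 32817 promoters of the RefSeq table and in 66.6% of 563 promoters of protein-coding members, which cover 443 of the 537. TATAAA on either strand is found in 13.6% and 7.99% of them. The sets are unlike, since the first was not limited by gene type or level and the second holds only protein-coding members. CG occurred at a median of 7 times per promoter in the first and 23 times in the second. The shares are thus not read as a trait of chromosome 10, and these are matches of letters only.

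Members of chromosome 10 had higher RNA levels in MC38-COSMC KO than in MC38-WT in each window of the chromosome that held 15 members or more. The log2 ratio of each member was taken between the mean of log2(value + 1) in a line and that in MC38-WT, where 0 means an equal level. The median over the 635 members was 0.24, 0.21 and 0.22 in the 3 samples of MC38-COSMC KO, against -0.02, 0.03 and 0.00 in those of MC38-WT, so the samples of the lines did not overlap. The line median was 0.22, a 1.17-fold level, and 514 members (80.9%) lay above 0. Over 12865 genes of the other chromosomes the median was 0.00, with 50.9% above 0. The quartiles of the members were 0.06 and 0.38. Among 20 chromosomes the median of chromosome 10 was the highest, followed by chromosome 17 at 0.09. The 70 pseudogenes had a median of 0.02 and the protein-coding members one of 0.23. Reads of a processed pseudogene can come from its parent gene on another chromosome, so the values of pseudogenes are uncertain.

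The other lines spread to both sides of the wild type. In the line labelled FUT4 the sample medians were 0.16 to 0.18, the line median was 0.19 and 458 members (72.1%) lay above 0, which was the highest median of any chromosome in that line, followed by chromosome 14 at 0.16. In MC38-CMAS KO the sample medians were 0.05 to 0.10 and the line median 0.09, with 417 members above 0. MC38-FUT9 had a line median of 0.00 and 321 members above 0. The medians of MC38-MOCK#2, MC38-MOCK#1 and MC38-DKO were -0.06, -0.09 and -0.12, with 261, 251 and 220 members above 0. Chromosome 10 was the second lowest of the 20 chromosomes in each of these 3 lines. Other chromosomes shifted as well. Chromosome 15 was the lowest in MC38-DKO at -0.223 and in MC38-MOCK#1 at -0.215, and chromosome X in MC38-MOCK#2 at -0.065. Chromosome 16 was the lowest in the line labelled FUT4 at -0.213, and chromosome 7 the highest in MC38-FUT9 at 0.334. Ordered by the medians of chromosome 10, neighbouring lines had sample medians that did not overlap, except that MC38-FUT9 overlapped MC38-WT and MC38-MOCK#1 overlapped MC38-DKO. The shares behind these orders are small: the median of MC38-DKO is a 0.920-fold level of the wild type, and that of MC38-COSMC KO a 1.17-fold level.

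**Figure D1:**
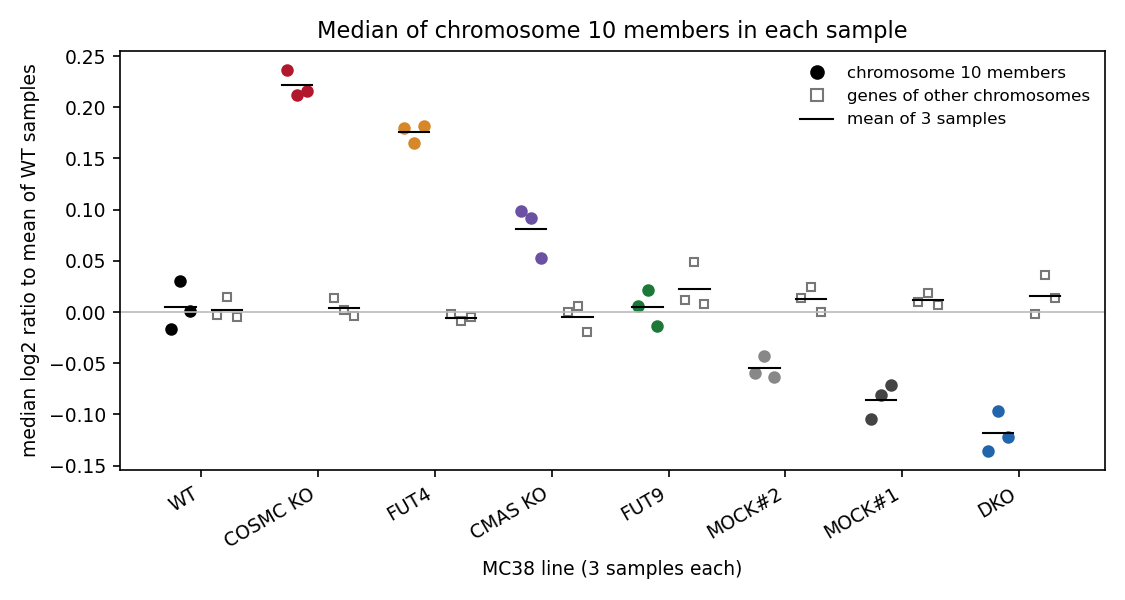
Median log2 ratio to the mean of the MC38-WT samples in each of the 24 samples, for the 635 chromosome 10 members (filled circles) and 12865 genes of other chromosomes (open squares), with the mean of 3 samples as a bar. The members lie at 0.21 to 0.24 in MC38-COSMC KO and at -0.14 to -0.10 in MC38-DKO. The median of the other genes, pooled over chromosomes, stays near 0 in each line.

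**Figure D2:**
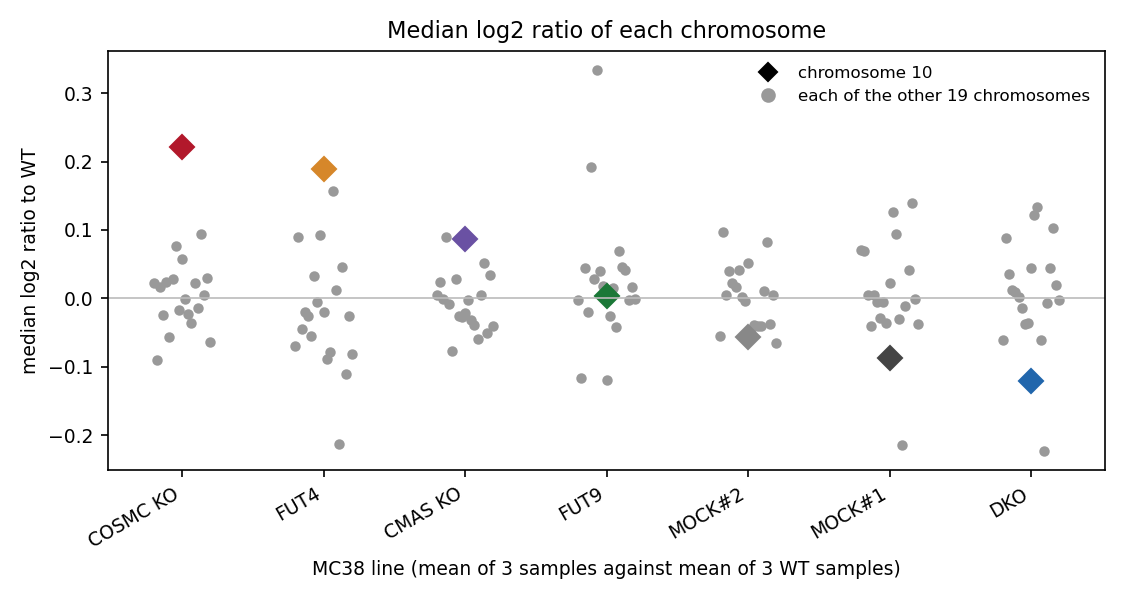
Median log2 ratio to MC38-WT of each of 20 chromosomes (grey circles) in 7 lines, with chromosome 10 as a coloured diamond. Chromosome 10 is the highest in MC38-COSMC KO at 0.22 and in the line labelled FUT4 at 0.19, and the second lowest in MC38-DKO, MC38-MOCK#1 and MC38-MOCK#2.

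The lines were next compared with their own references rather than with the wild type. MC38-COSMC KO lay above MC38-MOCK#1 by a median of 0.32 over the members, with 511 of 635 above 0. MC38-CMAS KO lay above MC38-MOCK#1 by 0.17 and MC38-DKO below it by a median of -0.03. Of the activated lines, the line labelled FUT4 lay above MC38-MOCK#2 by 0.23 and MC38-FUT9 by 0.07. MC38-DKO, labelled as a knockout of both Cmas and C1galt1c1, lay below MC38-CMAS KO by a median of -0.21, with 132 of 635 members above 0. The median over all genes of the other chromosomes pooled was between -0.03 and 0.02 in these contrasts.

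Position was examined in windows of 10 Mb (megabases), of which 13 held 15 members or more. In MC38-COSMC KO every one of the 13 had all 3 samples above all 3 samples of MC38-WT. Its window medians ran from 0.13 between 50 and 60 Mb to 0.32 between 100 and 110 Mb. A running median of 51 consecutive members gave 585 values, all of them above 0 in this line, from 0.15 around Rab36 to 0.36 around Aldh1l2. The window from 130 Mb held 3 members and was not counted, and its median was -0.13 with 1 member above 0.

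In the other lines the ratio changed along the chromosome. In the line labelled FUT4 the samples lay above the wild type in 9 of 13 windows, with 0.30 between 10 and 20 Mb and 0.29 between 80 and 90 Mb, but the median was -0.07 between 110 and 120 Mb. Its running median was highest at 0.42 around Apba3 and lowest at -0.16 around Cpm. In MC38-DKO the samples lay below the wild type in 9 of 13 windows, and the lowest window median, -0.36, was between 110 and 120 Mb. In that same window MC38-MOCK#1 had a median of -0.25 and MC38-FUT9 one of 0.20. In MC38-FUT9 the next window, from 120 to 130 Mb, was at 0.25, and the running median was highest at 0.43 around Ptges3. MC38-MOCK#1 was lowest between 100 and 110 Mb at -0.31, on 15 members, and MC38-MOCK#2 between 90 and 100 Mb at -0.22. MC38-CMAS KO ranged from -0.02 to 0.15 over the windows.

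**Figure D3:**
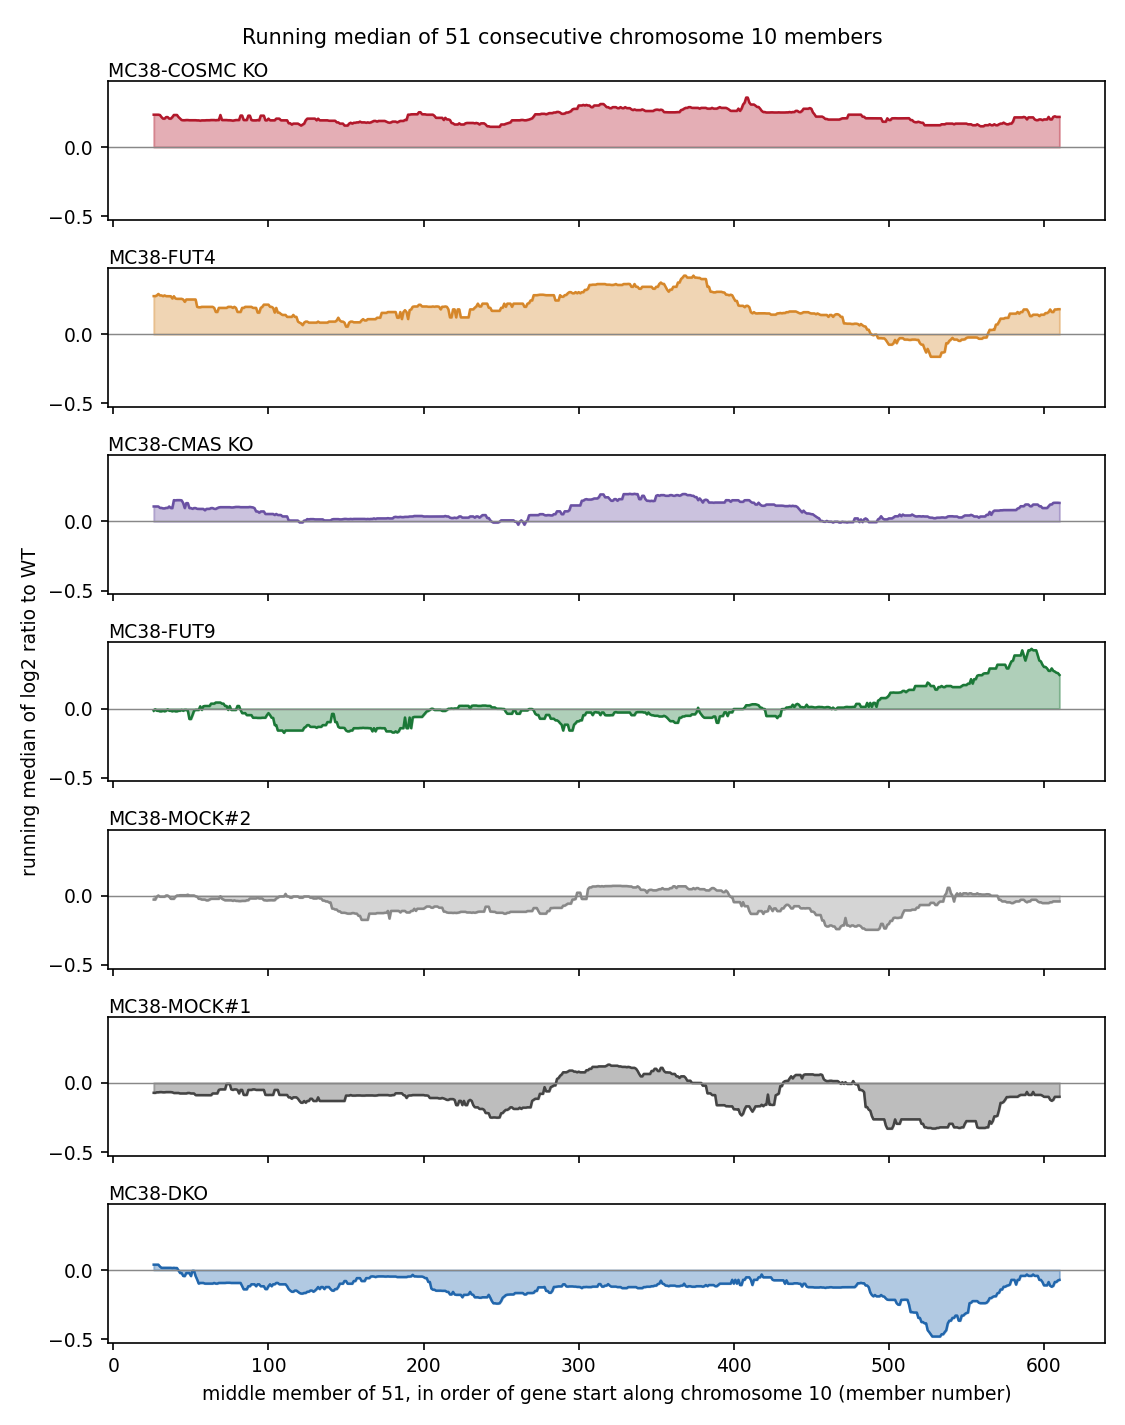
Running median of the log2 ratio to MC38-WT over 51 consecutive chromosome 10 members, against the number of the middle member in order of start, for 7 lines on a common axis. The curve stays above 0 throughout in MC38-COSMC KO, while toward the end of the chromosome it reaches -0.48 in MC38-DKO around Slc35e3 and 0.43 in MC38-FUT9.

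The points at which the medians on either side differed most were located in each line, with at least 40 members required on either side. They are descriptions, since they were chosen on the values. In MC38-FUT9 the point lay between Slc26a10, which starts at 127171393, and Arhgef25, which starts at 127182525. The 568 members before it had a median of -0.02 and the 67 after it one of 0.32. In the line labelled FUT4 it lay between Nudt4 at 95547007 and Anapc15-ps at 95672991, with 0.22 before and 0.04 after. In MC38-MOCK#1 it lay between 4930430F08Rik and Alx1, with -0.06 before and -0.21 after, and in MC38-DKO between Adgrg6 and Gm10335, with 0.05 on 41 members before and -0.13 after. The point of MC38-DKO thus lay next to the required minimum. That of MC38-CMAS KO lay at it, with 0.16 on 40 members before and 0.08 after. MC38-MOCK#2 had 0.00 before and -0.06 after its point. MC38-COSMC KO had 0.23 before and 0.18 after its point, both above 0.

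Single members were called with limma on log2(value + 1) at a Benjamini-Hochberg adjusted p below 0.05, and all 635 were tested in every comparison. In MC38-DKO 12 members rose and 60 fell, which is 1.89% and 9.45% of them, against a background over all genes tested of 3.51% higher and 4.03% lower. That background includes genes below a mean of 10, which cannot be members. Over genes of the other chromosomes with a mean of at least 10 the shares were 5.05% higher and 5.78% lower. In MC38-MOCK#1 17 rose and 49 fell, 2.68% and 7.72%, against 2.81% and 2.7% over all genes tested and 3.99% and 3.54% over the other chromosomes. In MC38-MOCK#2 9 rose and 24 fell, 1.42% and 3.78%, against 1.35% and 1.77% over all genes tested and 1.87% and 2.36% over the other chromosomes. In the line labelled FUT4 60 rose and 16 fell, 9.45% and 2.52%, against 3.93% and 3.98% over all genes tested and 5.09% and 5.92% over the other chromosomes. In MC38-FUT9 65 rose and 51 fell, 10.2% and 8.03%, against 6.62% and 7.12% over all genes tested. Over the other chromosomes the shares in MC38-FUT9 were 9.66% and 9.80%, close to those of the members. With the same total set in every sample the split in MC38-FUT9 turned to 50 higher and 63 lower. MC38-CMAS KO had 1 member called in each direction, Plagl1 and Dcn, against a background of 0.111% and 0.125%. In MC38-COSMC KO 9 members were called higher and 1 lower beside a background of 0.229% and 0.353%, from which nothing is read because this contrast chose the chromosome. The number of calls depended on single samples. Leaving out 1 sample gave 13 to 47 calls in MC38-DKO, lowest without its sample 2, and 1 to 39 in MC38-MOCK#1, also lowest without its sample 2. It gave 0 to 7 in MC38-MOCK#2, with 0 without its sample 1, its sample 2 or wild type sample 3 (104 to 112 members at an unadjusted p below 0.05), 8 to 72 in the line labelled FUT4, lowest without its sample 1, and 31 to 96 in MC38-FUT9, lowest without its sample 1. Without any 1 sample MC38-CMAS KO had 0 calls by limma, beside 45 to 115 members at an unadjusted p below 0.05.

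The calls were unevenly placed along the chromosome. Of the 137 members that start from 110 Mb on, 37 rose and 4 fell in MC38-FUT9, whereas of the 498 that start before it 28 rose and 47 fell. These are 27.0% and 2.92% of the 137 and 5.62% and 9.44% of the 498, beside 9.66% and 9.80% over the other chromosomes, so the share that fell before 110 Mb was near that of other genes. In MC38-DKO 2 of the 137 rose and 28 (20.4%) fell, beside 5.05% and 5.78% over the other chromosomes, and in MC38-MOCK#1 1 rose and 22 (16.1%) fell, beside 3.99% and 3.54%. In the line labelled FUT4 52 (10.4%) of the 498 members before 110 Mb rose and 8 fell, and beyond it 8 (5.84%) rose and 8 fell, beside 5.09% and 5.92%. The limit of 110 Mb was chosen after the values were seen. Without the members beyond it the calls were 42 in MC38-DKO, 43 in MC38-MOCK#1 and 75 in MC38-FUT9. Before 110 Mb 10 members (2.01%) rose and 32 (6.43%) fell in MC38-DKO, so the share that fell was near that of other genes. For MC38-MOCK#1 16 (3.21%) rose and 27 (5.42%) fell.

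Timp3, Gm47015, Plagl1 and Dcn were named by the rule in 4 or more lines, and each was near 0 in some lines and well counted in others. Timp3 (ENSMUSG00000020044, chr10:86300372-86349506, plus strand) encodes a secreted inhibitor of metalloproteinases. Its normalized counts were 519, 615 and 697 in MC38-WT and 5, 3 and 1 in MC38-DKO, 5, 4 and 4 in MC38-MOCK#1 and 1, 12 and 4 in the line labelled FUT4. Almost no RNA of this gene was counted in these 3 lines. In MC38-FUT9 the counts were 1338, 1535 and 1570, above every sample of the wild type, with a log2 ratio of 1.28 ± 0.12 (SE, n = 3 per line). The adjusted p by limma was 2.3e-05 in MC38-DKO, 5.1e-05 in MC38-MOCK#1, 0.0011 in the line labelled FUT4 and 0.0013 in MC38-FUT9. MC38-MOCK#2 had 225, 249 and 359 counts, MC38-COSMC KO 761, 943 and 877 and MC38-CMAS KO 957, 1113 and 1186. The call in MC38-MOCK#2 (limma adjusted p = 0.017) was lost in a fit of all 8 lines together. The gene lies within Syn3, a gene of the opposite strand, and how strand was treated in counting is not given in the sources used here.

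Gm47015 (ENSMUSG00000112907, chr10:79412962-79417905, minus strand) is a long intergenic non-coding RNA. Its counts were 372, 359 and 719 in MC38-WT, 33, 25 and 26 in MC38-DKO, 14, 6 and 6 in MC38-MOCK#1 and 26, 20 and 22 in the line labelled FUT4. The lines in which it was lowest were those of Timp3, with limma adjusted p of 0.00012, 0.0014 and 0.00038. In MC38-FUT9 the counts were 1252, 1281 and 1277, a log2 ratio of 1.47 ± 0.25 (SE) with an adjusted p of 0.0098, and in MC38-COSMC KO they were 1114, 1561 and 1431. MC38-MOCK#2 had 209, 193 and 187 counts and was also called lower (adjusted p = 0.038), as it was for Timp3. MC38-CMAS KO, at 373, 598 and 709, overlapped the wild type. The likeness of these genes was seen in the values and was not tested.

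Plagl1 (ENSMUSG00000019817, chr10:13060504-13131694, plus strand) encodes a zinc finger transcription factor that restrains growth and is imprinted. It had 62, 63 and 84 counts in MC38-WT and 5, 5 and 6 in MC38-FUT9, where it fell by 3.47 on the log2 scale with a limma adjusted p of 0.00059. It rose in the 5 remaining tested lines. The counts were 255, 262 and 285 in MC38-CMAS KO (log2 ratio 1.94 ± 0.16 SE, limma adjusted p = 0.0089), 307, 259 and 194 in MC38-DKO and 209, 209 and 193 in the line labelled FUT4. They were 193, 223 and 192 in MC38-MOCK#1 and 156, 153 and 135 in MC38-MOCK#2. No sample of these lines overlapped the wild type. MC38-COSMC KO had 112, 114 and 104.

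Dcn (ENSMUSG00000019929, chr10:97479609-97518143, plus strand) encodes decorin, a small proteoglycan that binds collagen. The 3 samples of MC38-WT differed widely at 129, 417 and 304 counts. In MC38-COSMC KO, MC38-CMAS KO, MC38-DKO and MC38-MOCK#1 every sample was between 0 and 6, in MC38-MOCK#2 they were 4, 9 and 28, and in MC38-FUT9 8, 7 and 31. The fall was called by limma in MC38-DKO (adjusted p = 0.0002), MC38-MOCK#1 (0.0021), MC38-FUT9 (0.0057), MC38-CMAS KO (0.0089) and MC38-MOCK#2 (0.011). The line labelled FUT4 had 118, 46 and 125 counts, each below every wild type sample, but was not called (limma adjusted p = 0.12).

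**Figure D4:**
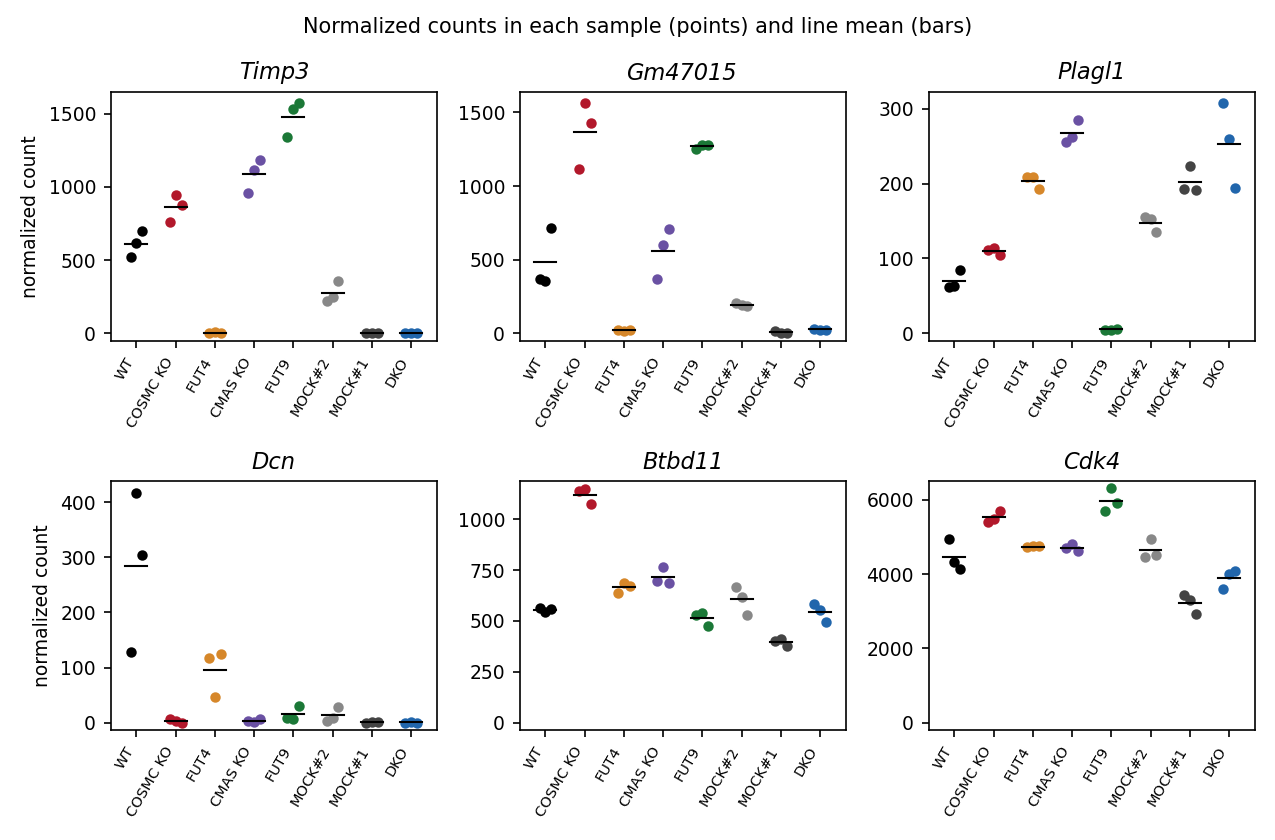
Normalized counts of 6 chromosome 10 members in each sample (points) with the line mean (bar), for 8 lines. Timp3 and Gm47015 are near 0 in the line labelled FUT4, MC38-MOCK#1 and MC38-DKO, Plagl1 is near 0 in MC38-FUT9, Dcn is high in MC38-WT, and Btbd11 is highest in MC38-COSMC KO.

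In MC38-COSMC KO the largest increases among members with a mean of at least 50 whose samples did not overlap were those of Gm46209, Gm47015, Tmcc3, Usp44 and Btbd11. Btbd11 (chr10:85386814-85660292) had 1140, 1148 and 1075 counts against 566, 544 and 557 in MC38-WT, a log2 ratio of 1.01. Usp44, a deubiquitinase, had 81, 92 and 108 against 34, 42 and 54, and Tmcc3 had 178, 197 and 177 against 64, 96 and 89. These 3 genes start in the windows from 80 to 100 Mb. Gm46209 is a processed pseudogene whose counts ranged from 130 to 2039 over all samples, and its values are uncertain for that reason. Under the same limits the largest decreases were those of Dcn, Gm8960, Unc5b, Glipr1 and Rgs17. Unc5b, a netrin receptor, had 706, 516 and 397 counts against 927, 1120 and 1008, and Rgs17, a regulator of G protein signalling, had 201, 214 and 163 against 283, 293 and 336. They went against the direction of most members.

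Some of the most abundant members of the windows show how the ratio varied between single genes. Eef2, the elongation factor of translation, was the highest of all members, with 28770, 31457 and 33898 counts in MC38-COSMC KO and 32480, 28342 and 25997 in MC38-WT. The samples of the lines overlapped. Ptbp1, a splicing regulator, also overlapped at 9464, 9969 and 10884 against 10582, 8602 and 8103. Slc25a3, the phosphate carrier of mitochondria, did not overlap at 7942, 7641 and 7715 against 7180, 6095 and 6348, nor did Hdac2, a histone deacetylase, at 1608, 1648 and 1579 against 1449, 1220 and 1366. Rpl41, a protein of the large ribosomal subunit, had 17484, 15008 and 17812 counts against 12382, 10622 and 10974, a log2 ratio of 0.57. Mthfd1l, an enzyme of mitochondrial folate metabolism near the start of the chromosome, had a log2 ratio of -0.06. Of the 635 members, 235 had all 3 samples of MC38-COSMC KO above those of MC38-WT and 15 had them below, 37.0% and 2.36%, beside 10.9% and 11.1% of the other 12865 genes. This contrast chose the chromosome and nothing is read from these shares.

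Members that act in growth and the cell cycle were taken from a list of which 19 are members. In MC38-FUT9 6 of the 19 rose (Frs2, Cdk4, Gli1, Timeless, Erbb3 and Cdk2) and 1, Myb, fell, with a median log2 ratio of 0.23 beside 0.00 over all members. Of the genes of other chromosomes 9.66% rose and 9.80% fell in this line, and the lists are short, so a single gene moves their counts. Cdk4 had 5694, 6335 and 5919 counts against 4953, 4320 and 4137 in MC38-WT, a log2 ratio of 0.42 ± 0.09 (SE, limma adjusted p = 0.023). Erbb3, a receptor tyrosine kinase, had 777, 602 and 756 against 241, 355 and 321 (1.23 ± 0.16 SE, limma adjusted p = 0.0046). The 6 that rose all start beyond 110 Mb, where 101 of 137 members of this line were above the wild type. In MC38-DKO 5 fell (Frs2, Rap1b, Hmga2, Timeless and Cdk2) and 0 rose by limma, beside 5.05% that rose and 5.78% that fell over the other chromosomes. The median of the list was -0.34, beside -0.12 over all members. The 5 that fell all start beyond 110 Mb, where 28 (20.4%) of 137 members fell in MC38-DKO. Hmga2, an architectural chromatin protein, had 477, 556 and 460 counts against 1117, 994 and 1425 (-1.23 ± 0.14 SE, limma adjusted p = 0.0015). In MC38-MOCK#1 4 fell, Sgk1, Kitl, Hmga2 and Cdk4, and in MC38-MOCK#2 3 fell, Myb, Sgk1 and Hmga2. Over the other chromosomes 3.54% and 2.36% fell in these lines. Frs2 and Rap1b fell in the line labelled FUT4, beside 5.92% over the other chromosomes. Sgk1, a kinase of the stress and hormone response, had 1755, 2247 and 2441 counts in MC38-MOCK#2 and 3676, 6154 and 6440 in MC38-WT. In MC38-COSMC KO 15 of 19 were above 0, beside 80.9% of all members, with a median of 0.13. Cdk1 in that line, at 2804, 2658 and 2690, overlapped the wild type at 2802, 2206 and 2492.

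Of 15 members that restrain growth or respond to stress, 4 rose in the line labelled FUT4 (Plagl1, Smarcb1, Stk11 and Dapk3) and 1, Sesn1, fell, beside 5.09% and 5.92% of the genes of other chromosomes. Stk11, the kinase LKB1, had 1210, 1285 and 1222 counts against 927, 872 and 816 in MC38-WT (0.51 ± 0.08 SE, limma adjusted p = 0.0095). Smarcb1, a subunit of the SWI/SNF remodelling complex, had 1506, 1335 and 1481 against 1086, 1070 and 1114 (0.40 ± 0.08 SE, limma adjusted p = 0.021). Both start in the windows from 70 to 90 Mb, where the window medians of this line were 0.24 and 0.29. In MC38-MOCK#1 Plagl1 rose and Sesn1, Foxo3, Smarcb1 and Phlda1 fell, and in MC38-DKO Plagl1 rose and Foxo3 and Phlda1 fell. Over the other chromosomes 3.99% rose and 3.54% fell in MC38-MOCK#1, and 5.05% rose and 5.78% fell in MC38-DKO. Foxo3, a transcription factor downstream of AKT, had 271, 271 and 267 counts in MC38-DKO and 305, 304 and 335 in MC38-MOCK#1 against 527, 722 and 642 in MC38-WT. In MC38-FUT9 Lats1 rose and Plagl1, Sesn1 and Dapk3 fell, beside 9.66% and 9.80% over the other chromosomes.

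Of 16 members that act on chromatin and DNA, 5 rose in MC38-FUT9 (L3mbtl3, Hdac2, Nab2, Baz2a and Smarcc2) and 0 fell by limma, beside 9.66% and 9.80% called over the other chromosomes. In that line 14 of the 16 were above 0, beside 50.6% of all members, with a median of 0.22. Baz2a, a subunit of the complex that silences ribosomal genes, had 2220, 2227 and 2211 counts against 1601, 1684 and 1689 (0.42 ± 0.06 SE, limma adjusted p = 0.0067). In MC38-DKO 3 fell, Jmjd1c, Arid5b and Dot1l, beside 5.78% over the other chromosomes, and 0 of 16 were above 0, beside 34.6% of all members. Dot1l, a histone methyltransferase, had 1369, 1542 and 1519 counts against 1891, 2039 and 1912 (-0.40 ± 0.09 SE, limma adjusted p = 0.027). In MC38-MOCK#1 the same 3 genes fell, together with Smarcb1, beside 3.54% over the other chromosomes. In MC38-COSMC KO 15 of 16 were above 0, beside 80.9% of all members, and nothing is read from this because that line chose the chromosome.

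Of 23 members of the ribosome and of RNA processing, all were above 0 in MC38-COSMC KO, beside 80.9% of all members. Their median was 0.26 beside 0.22 over all members, and nothing is read from this because that line chose the chromosome. Rps15, a protein of the small ribosomal subunit, had 10124, 9396 and 10307 counts in MC38-COSMC KO against 9045, 8209 and 6613 in MC38-WT. In MC38-FUT9 4 rose, Hnrnph3, Mars, Pa2g4 and Rps26, and in the line labelled FUT4 2 rose, Sf3b5 and Polr2e, while Xpot fell. Over the other chromosomes 9.66% rose in MC38-FUT9, and 5.09% rose and 5.92% fell in the line labelled FUT4. Mars, Pa2g4 and Rps26 start between 120 and 130 Mb, where 29 of 94 members rose in MC38-FUT9. Xpot, the exporter of transfer RNA, had 2659, 2704 and 2788 counts in the line labelled FUT4, 2152, 2132 and 2117 in MC38-DKO and 2057, 2348 and 2361 in MC38-MOCK#1, against 3565, 3198 and 3482 in MC38-WT. It fell in each of these 3 lines and starts at 121587380.

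Of 8 members that act in innate immunity and inflammation, 2 fell in MC38-DKO (Itgb2 and Cd63), 2 in MC38-MOCK#1 (Mif and Cd63) and 2 in MC38-FUT9 (Stx11 and Traf3ip2). Over the other chromosomes 5.78%, 3.54% and 9.80% fell in these lines. Mif, a macrophage migration inhibitory factor, had 2600, 2481 and 2687 counts in MC38-MOCK#1 against 4260, 4461 and 3154 in MC38-WT (-0.60 ± 0.13 SE, limma adjusted p = 0.048). In MC38-COSMC KO it had 4572, 4518 and 4751, above each wild type sample, and Tbk1, a kinase of the interferon response, had 825, 842 and 785 against 649, 598 and 731. Of 4 matrix members, Adamts14, Timp3 and Dcn fell in MC38-DKO and in MC38-MOCK#2, and P4ha1, a collagen prolyl hydroxylase, was called in none of the lines. Over the other chromosomes 2.36% fell in MC38-MOCK#2.

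Other members named by the rule had large changes in 1 or more lines, of which the following are given. In the line labelled FUT4, Unc5b had 2701, 3117 and 2590 counts against 927, 1120 and 1008 (1.46 ± 0.10 SE, limma adjusted p = 0.00055), and in MC38-MOCK#2 it had 2099, 2106 and 2674 (1.17 ± 0.12 SE, 0.0029). It was thus higher in both of these lines and lower in MC38-COSMC KO. Rgs17 had 659, 565 and 653 against 283, 293 and 336 in the line labelled FUT4 (1.04 ± 0.11 SE, limma adjusted p = 0.002). Itga7, a laminin-binding integrin, had 266, 175 and 229 there against 34, 52 and 25 (2.60 ± 0.28 SE, 0.0023), and 11, 13 and 11 in MC38-FUT9 (-1.53 ± 0.33 SE, 0.023). Mical1, an enzyme that oxidizes actin, had 5, 1 and 15 counts in the line labelled FUT4 against 126, 139 and 119 (limma adjusted p = 0.0085). Esr1, the oestrogen receptor alpha, had 23, 22 and 23 in MC38-MOCK#2 against 63, 100 and 67 (-1.68 ± 0.26 SE, limma adjusted p = 0.015). Cnn2, a calponin that binds actin, had 1609, 1737 and 1904 in MC38-MOCK#2 and 496, 494 and 479 in MC38-FUT9 against 955, 951 and 759, and both changes were called (limma adjusted p = 0.0048 and 0.0034).

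Among the named members, 70 differences from MC38-WT were called by limma, leaving MC38-COSMC KO aside. Of these, 16 remained called whichever 1 of the 6 samples was left out. They include Timp3 in MC38-DKO, MC38-MOCK#1, the line labelled FUT4 and MC38-FUT9, Gm47015 in MC38-DKO and the line labelled FUT4, and Plagl1 in MC38-DKO, the line labelled FUT4 and MC38-FUT9. Dcn in MC38-DKO, Unc5b and Rgs17 in the line labelled FUT4, and Baz2a, Cnn2, Sash1 and Tmem200a in MC38-FUT9 are the others. The remaining 54 were lost in at least 1 of these fits, and 0 of the 70 changed direction. With the same total set in every sample the calls of Hdac2 and Timeless in MC38-FUT9 and of Smarcb1 and Dot1l in MC38-MOCK#1 were lost, and in a fit of all 8 lines those of Mical1 in MC38-DKO, MC38-MOCK#1 and MC38-MOCK#2.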

How the data were processed

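RNA of 24 samples of MC38 cells was sequenced by the authors on stranded mRNA libraries as single reads. Per the labels and the study's methods, reads were trimmed, aligned to GRCm38 with HISAT2 2.0.4, handled with SAMtools 0.1.19, counted per gene with featureCounts of Subread 1.5.0-p3 and normalized with edgeR 3.18.1. The unit of the deposited table is a score, namely normalized counts that the authors rounded to whole numbers, so they are not raw counts, no count test was run on them, and the number of reads per sample is unknown. A gene is compared only with itself across lines.

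Lines were compared with limma (version 3.58.1 under R 4.3.3, moderated with a mean-dependent prior) on log2(value + 1), with the 3 samples of a line and the 3 of MC38-WT and no covariate. Such log2 ratios understate the change of low genes. A gene at 0 in over 4 of the 6 samples was not tested. P-values were adjusted over all genes tested. Samples were grouped by their labels, which do not say whether they are separate cultures, while the study describes harvests at independent time points. P-values measure only the spread between these samples. Medians, windows and running medians were computed with Python 3.11.15, numpy 2.4.6 and pandas 2.3.3 and have no test, and matplotlib 3.10.9 drew the plots. The fit was tested on simulated data.

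Members and gene lists were chosen with earlier results of these data known. Named genes are the most abundant member of each window, the 5 largest increases and decreases in MC38-COSMC KO and the 3 largest called in each other line, at a mean of at least 50 and with samples that do not overlap, plus up to 4 of the most abundant members of each list. Other members called in a list were named after their values were seen. Alternatives were the pseudocount, the filter, the scaling, a prior without a trend, a fit of all 8 lines, replicate numbers as blocks, a stricter fold and leaving out each sample, and, chosen after seeing the data, protein-coding members or those before 110 Mb alone. Symbols were found for 52403 of 52636 identifiers.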

Additional observations from a re-analysis of the deposited data

Results flagged for a closer look

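A knockout of C1galt1c1 is labelled in 2 lines, MC38-COSMC KO and MC38-DKO. The members of chromosome 10 differed in opposite directions in the contrasts given here. In MC38-COSMC KO the median log2 difference of the 635 members from MC38-MOCK#1 was 0.32, with 0.34, 0.31 and 0.30 in the 3 samples. In MC38-DKO the median difference from MC38-CMAS KO was -0.21, with -0.24, -0.17 and -0.20. Every sample of the first contrast lay above 0 and every sample of the second below it. The difference between the contrasts was not tested, and the level of MC38-COSMC KO had chosen the chromosome. Against MC38-MOCK#1, the reference of the knockout lines, MC38-DKO lay at -0.03 and MC38-CMAS KO at 0.17. The sample labels do not say whether MC38-DKO was made from MC38-CMAS KO. Each label is a single line, so an effect of the knockout cannot be told apart from a difference between lines. C1galt1c1 itself averaged 144 normalized counts in MC38-COSMC KO and 238 in MC38-MOCK#1, and 182 in MC38-DKO and 183 in MC38-CMAS KO. These RNA counts do not show whether the gene was knocked out.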

How the results depend on the processing

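The median log2 ratio of the members kept its sign in 6 of the 7 lines under each alternative, and that of MC38-FUT9, near 0, did not. Setting the same total in every sample gave -0.057 in MC38-MOCK#1 and -0.063 in MC38-FUT9, centring on the other chromosomes gave -0.084 in MC38-MOCK#2, and members before 110 Mb gave -0.034 in MC38-FUT9. Leaving out 1 sample gave 0.21 to 0.24 in MC38-COSMC KO, 0.16 to 0.20 in the line labelled FUT4, 0.07 to 0.10 in MC38-CMAS KO, -0.01 to 0.01 in MC38-FUT9, -0.07 to -0.05 in MC38-MOCK#2, -0.10 to -0.08 in MC38-MOCK#1 and -0.13 to -0.11 in MC38-DKO.

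Counts of called members varied far more. In the order MC38-COSMC KO, MC38-CMAS KO, MC38-DKO, MC38-MOCK#1, MC38-MOCK#2, the line labelled FUT4 and MC38-FUT9, a fit of all 8 lines called 116, 19, 148, 158, 94, 173 and 182 members. Without a trend the counts were 2 in MC38-COSMC KO, 22 in MC38-DKO, 18 in MC38-MOCK#1, 9 in MC38-MOCK#2, 22 in the line labelled FUT4 and 49 in MC38-FUT9. An absolute log2 ratio above 1 left 5, 26, 22, 19, 19 and 36 in those 6 lines. In MC38-COSMC KO a mean of at least 10 gave 19 and the same total 6, and in MC38-CMAS KO a mean of at least 10 gave 8 and no filter or median-of-ratios scaling 6 each. Members before 110 Mb gave 42 in MC38-DKO, 43 in MC38-MOCK#1 and 75 in MC38-FUT9. The causes were not tested, apart from fewer members in the last setting. Leaving out 1 sample gave 0 to 3 in MC38-COSMC KO, 0 to 0 in MC38-CMAS KO, 13 to 47 in MC38-DKO, 1 to 39 in MC38-MOCK#1, 0 to 7 in MC38-MOCK#2, 8 to 72 in the line labelled FUT4 and 31 to 96 in MC38-FUT9. The count moved by over 1.5 times whichever sample was left out, except wild type sample 1 for the line labelled FUT4 and wild type samples 1 and 2 for MC38-FUT9. Of the 70 calls of named members, 33 remained without a trend, 66 in the fit of all 8 lines and 66 with the same total.

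Same-numbered samples did not deviate together: their correlations across genes ran from -0.31 to 0.20, and in none of the 7 comparisons were all 3 above 0.1. With the replicate number as a block limma called 0 members in every line, beside 58 in MC38-CMAS KO to 183 in MC38-FUT9 at an unadjusted p below 0.05. The rounding and unknown depth of the values limit what can be said of members near 10 normalized counts.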
